A study of Mus musculus with 14 samples.

Results

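The 10 genes described here encode inhibitory receptors of lymphocytes (Pdcd1, Lag3, Havcr2, Tigit, Cd160, Btla, Cd244a and Cd200) and ectonucleotidases, enzymes that degrade extracellular nucleotides (Entpd1 and Nt5e). They were chosen by symbol, and all 10 were found among the 19937 genes with a probe set of their own on the arrays. Cd244 was found under its current symbol Cd244a. Each had 1 probe set with a single symbol, so its value is that probe set's. Cd200 is a ligand of inhibitory receptors rather than a receptor itself, and Cd244a can also act as an activating receptor.

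The study measured gene expression in T cells sorted from C57BL/6 mice that were wild type (WT) or labelled ENK KO, 1 Affymetrix whole-transcript array per sample and 14 arrays in all. CD4+CD8+ thymocytes, the immature stage that carries both co-receptors, came from the thymus, with 3 WT and 2 ENK KO samples. CD8+ T cells came from the spleen, with 4 WT and 5 ENK KO samples. The design asks how the genotypes differ within each population. The abbreviation ENK is not explained in the labels. The title of the series concerns Engrailed-2, whose gene is En2. WT samples were all labelled 7 months, and each WT group had 1 sample labelled female. In the thymus, ENK KO number 29 was labelled male at 7 months and number 1 female at 2 months. In the spleen, ENK KO numbers 3 and 6 were labelled female at 2 months, and numbers 31, 28 and 25 male at 7, 6 and 9 months. Age, sex and genotype therefore overlapped in part. The samples are numbered, but no label says outright that each is another animal. P-values thus reflect sample-to-sample spread, which may be technical.

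Many inhibitory receptors carry tyrosine motifs in their cytoplasmic tails that recruit phosphatases and adaptors and so dampen signals from the antigen receptor. Pdcd1, Lag3, Tigit and Havcr2 are induced when T cells meet antigen and stay high on exhausted cells, while Btla is also found on resting lymphocytes. Btla and Cd160 bind the same ligand, the herpesvirus entry mediator Tnfrsf14. Entpd1 (CD39) cuts extracellular ATP and ADP to AMP, and Nt5e (CD73) cuts AMP to adenosine, which quiets T cells through adenosine receptors.

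Values are log2 expression values, and the number of arrays limits their precision. The median over probe sets lay between 7.14 and 7.25 on the 14 arrays. A level of 6.76, the 40th percentile of all values, served as the threshold for low signal, and 13641 genes that exceeded it on at least 2 arrays were tested. In thymus 73.9% of genes, and 8 of the 10 members, had an identical value on 2 or more of the 5 arrays, so that an SD of 0 there is no sign of precision. In spleen the figures were 54.4% and 6 of 10 over 8 arrays. En2 was at 6.01 to 6.14 in thymus and 6.12 to 7.87 in spleen, with the genotypes overlapping. Where its probes lie relative to any deletion is unknown here, so it checks nothing. The library labelled spleen ENK KO 28 went against its label: its Cd4 value was 12.20, where the 8 other spleen arrays had 6.61 to 6.92, and its Cd8a value was 6.78, where they had 12.06 to 12.53. It was held apart, and unless stated no spleen value includes it. Spleen WT 22, labelled female, had Xist at 5.90, while the other 4 arrays with that label had 12.36 to 13.37, and had Kdm5d, a Y-linked gene, at 9.85. Leaving it out changed the call of 1 member, Cd200.

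Nt5e, Btla, Cd160 and Entpd1 were higher in splenic CD8+ cells than in CD4+CD8+ thymocytes, in WT and in ENK KO alike, and Lag3 was lower. Cd244a lay near or below the low-signal level. Tigit, Cd200 and Pdcd1 either missed the threshold or passed it only under some settings. No member was called between ENK KO and WT.

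**Figure D1:**
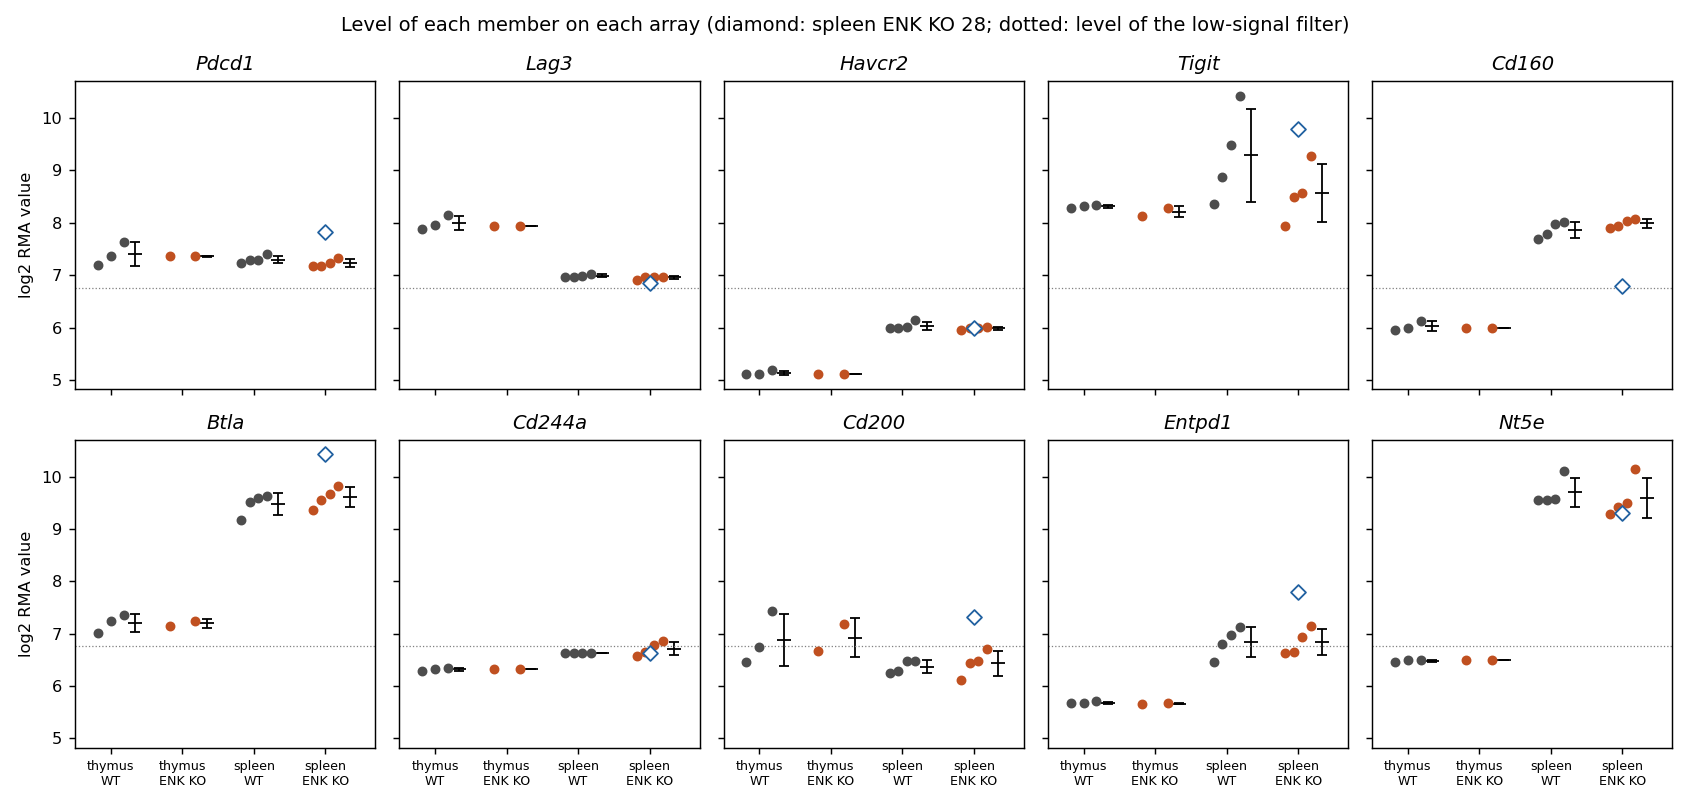
Log2 RMA value (y axis) of each member on each array, by group (x axis). Dots are arrays, bars are the mean ± SD of the dots, the diamond is spleen ENK KO 28, and the dotted line is the low-signal level of 6.76. Nt5e, Btla, Cd160 and Entpd1 lie higher on every spleen array than on any thymus array, and Tigit spreads from 7.94 to 10.42 over the 8 spleen arrays.

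In WT, 8 of the 9 members tested differed between spleen and thymus at an adjusted p under 0.05 (limma, Benjamini-Hochberg over all genes tested), 6 higher and 2 lower in spleen. In this comparison 70.1% of all genes tested were called, 31.3% higher and 38.8% lower, so a call is common among genes at large. In ENK KO, 6 of 9 were called, 5 higher and 1 lower, against 65.0% of all genes (27.9% higher and 37.2% lower). Groups did not overlap for 6 tested members higher and 1 lower in spleen in WT, beside 32.6% and 39.2% of all genes. In ENK KO they did not overlap for 5 higher and 2 lower, beside 32.0% and 42.6%. The genotypes share no arrays in these 2 comparisons. The median difference over the 9 members was 0.97 in WT and 0.40 in ENK KO on the log2 scale, against -0.045 and -0.058 over all genes tested. Each member median is the value of 1 gene, Tigit in WT and Cd244a in ENK KO. The call of Tigit was not stable and Cd244a was at low signal, so the medians do not compare the genotypes. Cd160 and Nt5e exceeded the low-signal level only on spleen arrays, 9 each with number 28, Entpd1 on 6 spleen arrays, and Cd244a on 2, spleen ENK KO 31 and 6. These 4 were tested because of the group in which they are high, and their thymus values lie in the range of low signal, as do all spleen WT values of Cd244a. Fold differences of the first 3 are approximate, and none is given for Cd244a. In these sorted populations, fewer cells that express a gene and less RNA per cell cannot be told apart.

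**Figure D2:**
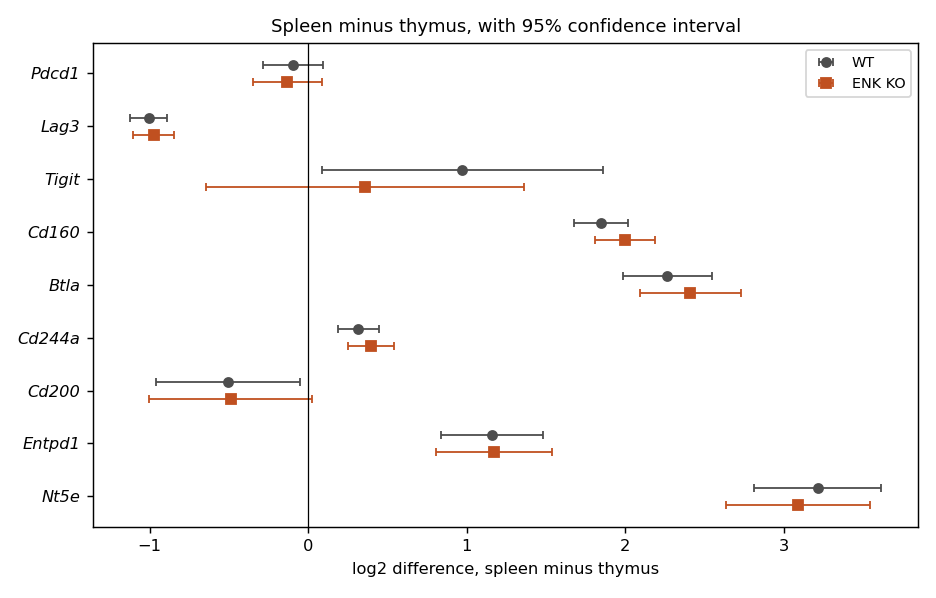
Difference between spleen and thymus (x axis, log2) of the 9 members tested, with 95% confidence intervals, in WT (circles) and ENK KO (squares). The WT and ENK KO estimates of Nt5e (3.21 and 3.09), Btla (2.27 and 2.41), Cd160 (1.85 and 2.00), Entpd1 (1.16 and 1.17) and Lag3 (-1.01 and -0.98) lie close together, and the intervals of Tigit are the widest.

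Of the ectonucleotidases, Nt5e showed the largest difference among the members. Its log2 value was 6.46, 6.49 and 6.49 in thymus WT and 6.49 on both thymus ENK KO arrays. In spleen it was 9.56, 9.56, 9.57 and 10.10 in WT and 9.29, 9.41, 9.49 and 10.14 in ENK KO. Every spleen array lay above every thymus array, and number 37 in WT and number 25 in ENK KO were the highest of their groups. The difference was 3.21 (SE 0.18, 95% CI 2.81 to 3.61, adjusted p = 1.2e-08 in limma) in WT, or 9.28-fold. In ENK KO it was 3.09 (SE 0.21, adjusted p = 7.3e-08), or 8.52-fold.

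Entpd1, the enzyme upstream of Nt5e, was at 5.67, 5.67 and 5.71 in thymus WT and 5.66 and 5.67 in thymus ENK KO. Spleen values were 6.47, 6.81, 6.97 and 7.13 in WT and 6.63, 6.65, 6.94 and 7.14 in ENK KO. The tissues did not overlap, while the genotypes interleaved within spleen around the low-signal level. The difference between spleen and thymus was 1.16 (SE 0.15, adjusted p = 1.9e-05, limma) in WT and 1.17 (SE 0.17, adjusted p = 6.1e-05) in ENK KO, about 2.24-fold and 2.25-fold.

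Among the receptors, Btla, which binds Tnfrsf14, was at 7.01, 7.25 and 7.36 in thymus WT and at 7.14 and 7.25 in thymus ENK KO, all above the low-signal level. In spleen it was at 9.17, 9.50, 9.60 and 9.62 in WT and at 9.37, 9.56, 9.67 and 9.83 in ENK KO. The lowest spleen array exceeded the highest thymus array by far more than the range within either tissue. The difference was 2.27 (SE 0.13, 95% CI 1.99 to 2.55, adjusted p = 1.2e-08, limma) in WT, or 4.81-fold, and 2.41 (SE 0.15, adjusted p = 2.8e-08), or 5.32-fold, in ENK KO.

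Cd160, a lipid-anchored receptor that shares this ligand, was at 5.95, 5.99 and 6.13 in thymus WT and 5.99 on both thymus ENK KO arrays. It was at 7.70, 7.79, 7.97 and 8.01 in spleen WT and 7.90, 7.94, 8.03 and 8.08 in spleen ENK KO. Thymus arrays were all in the low-signal range and spleen arrays all above it. The difference was 1.85 (SE 0.077, adjusted p = 8.3e-10, limma) in WT and 2.00 (SE 0.088, adjusted p = 1.9e-09) in ENK KO, or 3.59-fold and 3.997-fold. Their ligand gene Tnfrsf14 was itself higher in spleen, by 0.86 (SE 0.27, adjusted p = 0.013) in WT and 0.79 (SE 0.31, adjusted p = 0.040) in ENK KO. Tnfrsf14 was chosen after its values were seen.

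The stretches of 250 bases before the annotated start of these 4 genes are shown because all 4 were higher in spleen in both genotypes. That direction is common among genes at large, and shared regulation was not tested. The stretches are from RefSeq, GRCm38.p6, each written 5′ to 3′ on the strand of its gene. Cd160 lies on the minus strand at chr3:96829352-96829601. The others lie on the plus strand, Btla at chr16:45224087-45224336, Entpd1 at chr19:40612116-40612365 and Nt5e at chr9:88327359-88327608. For Cd160 and Entpd1, which have 2 windows in the table, the outermost start was taken. Capitals mark matches on either strand to 8 short motifs: the Runx core TGTGGT, the Ets core AGGAAG, the E-box CAGNTG, the NFAT core GGAAAA, the AP-1 site TGANTCA, the T-box core TCACAC, the TCF/LEF core CTTTGA and the TATA box TATAAA. Where matches touch, their capitals run together.
Cd160: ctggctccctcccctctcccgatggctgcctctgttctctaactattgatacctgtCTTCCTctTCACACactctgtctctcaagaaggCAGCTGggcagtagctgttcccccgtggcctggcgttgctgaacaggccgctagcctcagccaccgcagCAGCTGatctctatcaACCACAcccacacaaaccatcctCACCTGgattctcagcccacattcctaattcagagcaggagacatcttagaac
Btla: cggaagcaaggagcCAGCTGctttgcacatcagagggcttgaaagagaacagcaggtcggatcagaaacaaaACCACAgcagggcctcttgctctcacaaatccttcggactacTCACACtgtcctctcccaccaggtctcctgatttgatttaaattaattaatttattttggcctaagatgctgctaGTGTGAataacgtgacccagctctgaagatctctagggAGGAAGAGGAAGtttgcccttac
Entpd1: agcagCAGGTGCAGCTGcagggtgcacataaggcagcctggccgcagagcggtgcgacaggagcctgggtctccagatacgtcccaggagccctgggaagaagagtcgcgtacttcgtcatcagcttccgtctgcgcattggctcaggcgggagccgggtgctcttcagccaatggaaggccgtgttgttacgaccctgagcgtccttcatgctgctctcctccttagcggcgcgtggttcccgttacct
Nt5e: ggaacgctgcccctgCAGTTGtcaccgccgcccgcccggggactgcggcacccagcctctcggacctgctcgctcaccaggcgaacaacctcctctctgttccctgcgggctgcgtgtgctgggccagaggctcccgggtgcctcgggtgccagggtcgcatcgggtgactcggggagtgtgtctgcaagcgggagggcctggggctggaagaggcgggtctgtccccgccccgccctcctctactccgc

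Among the 4 windows printed, those of the 2 receptors and those of the 2 enzymes differed in composition. Cd160 and Btla had a GC content of 55.2% and 47.2% with 5 and 4 CpG dinucleotides, against medians of 52.4% and 6 over all 32851 promoter windows in the table. Entpd1 and Nt5e had 62.4% and 72.0% with 18 and 21. An E-box matched in all 4, and 44.8% of all windows hold one. Cd160 and Btla each also held the Runx core, found in 14.05% of windows, the Ets core, in 29.5%, and the T-box core, in 12.3%. The T-box core occurred 2 times in Btla, starting 136 and 61 bases before the start, and 1 time in Cd160, at 186 bases. None of the 4 windows held the NFAT, AP-1, TCF/LEF or TATA letters, found in 20.4%, 6.75%, 13.8% and 12.4% of windows. Of the 10 members 9 had a window, and the remaining 5 were not printed: Pdcd1 held 1 Ets core, Tigit 1 Runx and 1 NFAT core, Havcr2 1 Runx core, 2 Ets cores and 1 AP-1 site, Cd244a 1 E-box and 1 AP-1 site, and Cd200 none of the 8. These matches describe letters in a window and no binding was measured. The GC content of the 5 windows not printed ran from 40.0% (Tigit) to 60.4% (Pdcd1), the latter near that of Entpd1, with 2 to 6 CpG dinucleotides.

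Lag3, a receptor for MHC class II whose gene lies next to Cd4 on chromosome 6, ran the other way. It was at 7.89, 7.96 and 8.14 in thymus WT and 7.93 on both thymus ENK KO arrays. Spleen values were 6.97, 6.97, 6.99 and 7.03 in WT and 6.92, 6.97, 6.97 and 6.97 in ENK KO. All thymus arrays were higher than all spleen arrays, and both tissues lay above the low-signal level. The spleen values lay only a little above it and below the lowest array median of 7.14, and most of them were identical. Fold differences of Lag3 are therefore approximate. The spleen was lower by 1.01 (log2 difference -1.01, SE 0.052, adjusted p = 5.5e-09, limma) in WT, or 2.01-fold, and the difference was -0.98 (SE 0.059, adjusted p = 2.9e-08) in ENK KO, or 1.97-fold. Its neighbour Cd4 was at 12.94 to 13.13 in thymus and 6.61 to 6.92 in spleen, as the sort requires.

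Tigit, a receptor for the nectin-like protein Pvr, was even across thymus and uneven across spleen. It was at 8.29, 8.31 and 8.34 in thymus WT and at 8.14 and 8.29 in thymus ENK KO. In spleen WT it was at 8.35, 8.88, 9.49 and 10.42, and in spleen ENK KO at 7.94, 8.49, 8.56 and 9.28. Every spleen WT array was above every thymus WT array, the lowest by little, whereas spleen ENK KO number 3 lay below all thymus arrays. The difference between spleen and thymus was 0.97 (SE 0.41, 95% CI 0.088 to 1.86, adjusted p = 0.0485, limma) in WT and 0.36 (SE 0.46, 95% CI -0.65 to 1.36, adjusted p = 0.514) in ENK KO. Without spleen WT 34 the WT difference was 0.59 (adjusted p = 0.116), and the call was also lost without any 1 of 8 other arrays or with number 28 counted. The call in WT is therefore not stable, and its difference from ENK KO was not shown (-0.62 with a 95% CI of -1.95 to 0.72 between the genotypes' differences, adjusted p = 0.978).

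Cd200, the ligand of Cd200r1 and a neighbour of Btla on chromosome 16, was near the low-signal level and uneven in thymus. It was at 6.46, 6.74 and 7.44 in thymus WT and at 6.67 and 7.18 in thymus ENK KO. Spleen values were 6.25, 6.29, 6.47 and 6.48 in WT and 6.12, 6.45, 6.47 and 6.70 in ENK KO. The highest thymus arrays were WT 32 and ENK KO 1, and the tissues overlapped. The difference was -0.51 (SE 0.21, adjusted p = 0.0451, limma) in WT and -0.49 (SE 0.24, 95% CI -1.003 to 0.025, adjusted p = 0.0866) in ENK KO. Without thymus WT 32 the WT value was -0.23 (adjusted p = 0.251), and the call was lost without any 1 of 7 other arrays and with number 28 counted. The ENK KO value became a call without thymus ENK KO 29 (-0.75, adjusted p = 0.0487) or without thymus WT 32, which changed only the shared spread (adjusted p = 0.0242). No protein-coding gene lies between Btla and Cd200 in the RefSeq order.

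Pdcd1, the programmed death receptor, differed least between the tissues. It was at 7.19, 7.36 and 7.64 in thymus WT, 7.36 on both thymus ENK KO arrays, 7.23, 7.28, 7.28 and 7.40 in spleen WT, and 7.17, 7.18, 7.23 and 7.34 in spleen ENK KO. The WT groups overlapped, and all 4 spleen ENK KO arrays lay just below both thymus ENK KO arrays. The difference was -0.098 (SE 0.087, 95% CI -0.29 to 0.092, adjusted p = 0.332, limma) in WT and -0.13 (SE 0.099, 95% CI -0.35 to 0.084, adjusted p = 0.262) in ENK KO. The WT value passed without thymus WT 32 (-0.20, adjusted p = 0.0423) and was 0.024 without thymus WT 7. Cd244a, a receptor for Cd48 that lies beside the related genes Ly9 and Slamf7 on chromosome 1, ranged from 6.29 to 6.35 in thymus and from 6.57 to 6.86 in spleen. The tissues did not overlap, but only 2 arrays exceeded the low-signal level and all 4 spleen WT arrays held the same value, 6.64. Limma called it higher in spleen in both genotypes, and no size is read from values this low.

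Havcr2, a receptor of exhausted and myeloid cells, never exceeded the low-signal level and was not tested. It ranged from 5.11 to 5.18 in thymus and from 5.95 to 6.15 in spleen, without overlap. Values this low have no reliable fold difference.

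Between genotypes, 0 of the 9 members tested were called in thymus, where 0.0367% of all genes were (5 genes), and 0 in spleen, where 0.0147% were (2 genes). At an unadjusted p under 0.05 limma also gave 0 members in either tissue, against 4.07% and 9.73% of all genes. WT and ENK KO ranges overlapped for all 10 members in both tissues. All ENK KO arrays lay above or below all WT arrays for 4.04% and 5.21% of all genes in thymus and 2.13% and 1.43% in spleen. In thymus the differences ran from -0.10 (Tigit) to 0.044 (Cd200). The 95% CIs give a range for an undetected difference: -0.20 to 0.072 for Lag3, -0.26 to 0.19 for Pdcd1 and -1.16 to 0.955 for Tigit. That of Lag3 may be too narrow, because both its thymus ENK KO values and most of its spleen ENK KO values were identical. The groups share an estimate of the spread, so the width for Tigit in thymus comes largely from its spleen arrays. Its thymus values ran only from 8.14 to 8.34 (SD 0.027 in WT and 0.107 in ENK KO), beside an SD of 0.89 in spleen WT. Cd160, Entpd1, Nt5e and Cd244a were at low signal on all thymus arrays, and an interval there bounds nothing.

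**Figure D3:**
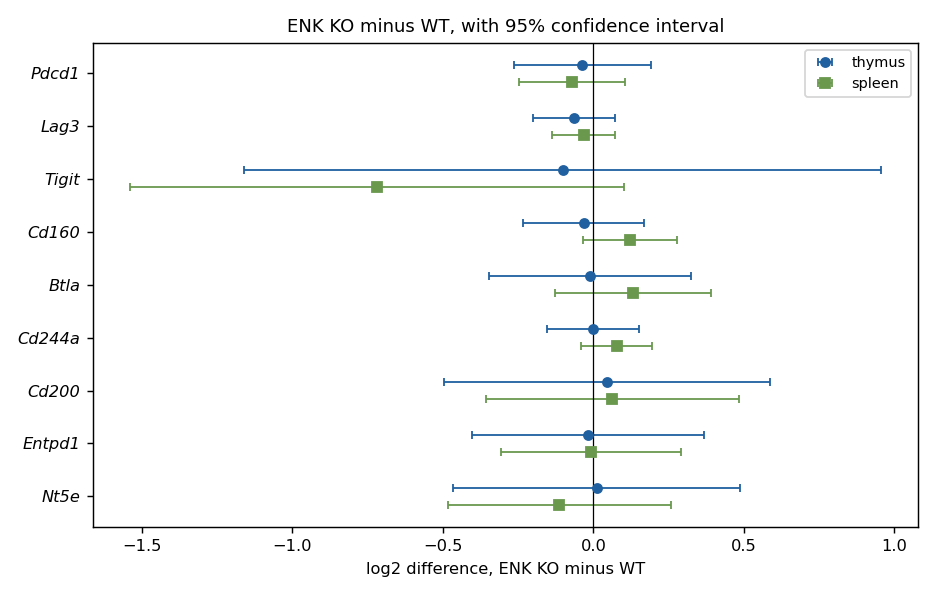
Difference between ENK KO and WT (x axis, log2) of the 9 members tested, with 95% confidence intervals, in thymus (circles) and spleen without number 28 (squares). Every interval includes 0, and the one farthest from it is Tigit in spleen at -0.72.

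In spleen the differences ran from -0.72 (Tigit) to 0.13 (Btla). Tigit in spleen had a difference of -0.72 (SE 0.38, 95% CI -1.54 to 0.10, adjusted p = 0.529, limma), with a WT mean of 9.29 ± 0.89 (SD, n = 4) beside an ENK KO mean of 8.57 ± 0.55 (SD, n = 4). It lay between -1.03 and -0.34 when single arrays were left out. Nt5e had a difference of -0.11 (95% CI -0.48 to 0.26), Entpd1 of -0.0074 (95% CI -0.31 to 0.29), Btla of 0.13 (95% CI -0.13 to 0.39) and Cd160 of 0.12 (95% CI -0.035 to 0.28). The other 4 tested members lay between -0.071 and 0.078. The spleen intervals of Tigit, Nt5e and Entpd1 may be too narrow, because the spread is shared with the thymus arrays. For Nt5e the SD was 0.018 in thymus WT, beside 0.27 in spleen WT and 0.38 in spleen ENK KO. For Entpd1 it was 0.021 in thymus WT, beside 0.28 and 0.25 in spleen, where its values lay around the low-signal level. The spleen effect minus the thymus effect was called for 0 of 9 members, and for 0.00733% of all genes.

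The library labelled spleen ENK KO 28 differed from the other spleen arrays in the members as well as in its co-receptors. Of the 10 members, 4 lay above all 8 other spleen arrays and 2 below, where 15.0% and 17.9% of all genes tested did. Btla was at 10.44 against 9.17 to 9.83, Entpd1 at 7.79 against 6.47 to 7.14, Cd200 at 7.32 against 6.12 to 6.70, and Pdcd1 at 7.82 against 7.17 to 7.40. Cd160 was at 6.80, just above the low-signal level, against 7.70 to 8.08. Lag3 was at 6.85 against 6.92 to 7.03, a small distance, and Tigit (9.80), Nt5e (9.30), Cd244a (6.64) and Havcr2 (5.99) lay inside the range. The mean over 14 markers of regulatory T cells was 9.09 there and 7.60 to 7.85 on the others, with Foxp3 at 9.87 against at most 7.48 and Ctla4 at 10.59 against at most 9.46. The mean over 13 markers of memory CD8 cells was 8.65 against 9.49 to 10.69. Whether these marker levels have a part in the members' values on this array was not tested.

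**Figure D4:**
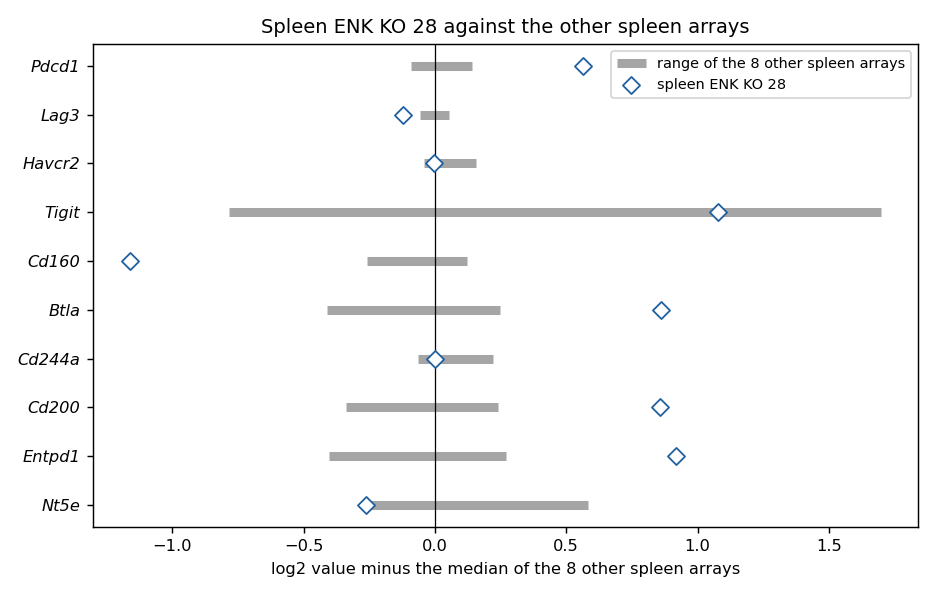
Value of each member on spleen ENK KO 28 (diamonds) and range of the 8 other spleen arrays (grey bars), as the log2 value minus the median of those 8 arrays (x axis). Pdcd1, Btla, Cd200 and Entpd1 lie above the bars, and Cd160 and Lag3 below.

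With number 28 counted in its labelled group, 0 members were called between genotypes in spleen, as without it. The difference between genotypes turned from -0.071 to 0.048 for Pdcd1, from 0.12 to -0.12 for Cd160 and from -0.0074 to 0.18 for Entpd1, none of them a call.

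For the 6 members whose group means spanned over 1 log2 unit, the tested genes with the most similar profile over the 13 arrays without number 28 were found by the root-mean-square (RMS) difference of values centred per gene. Lag3 was closest to Zfp821 (0.041), Acan (0.051) and Aars2 (0.060). Cd160 was closest to Lap3 (0.10), Esyt1 (0.11) and Cblb (0.11), Btla to Abcc1 (0.13), Atp10d (0.14) and Ripor2 (0.14), and Entpd1 to Camk2b (0.13), Igflr1 (0.14) and Dock5 (0.14). Nt5e was closest to Hopx (0.19), Myc (0.19) and Klk8 (0.20). All these genes were read from the same arrays, and the likeness is a description only.

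Tigit, whose profile also varied within spleen, was closest to Irf4, a transcription factor induced by antigen receptor signals, with an RMS difference of 0.19 beside 0.66 for the spread of Tigit itself. Coq10b (0.22) and Tgif1 (0.26) followed. In spleen WT numbers 40, 22, 37 and 34, Irf4 was at 7.05, 7.65, 7.996 and 8.68, and Tigit at 8.35, 8.88, 9.49 and 10.42. In spleen ENK KO numbers 3, 6, 25 and 31, Irf4 was at 6.63, 6.87, 7.36 and 7.78, and Tigit at 7.94, 8.56, 8.49 and 9.28. Both genes were highest on the same array of each spleen group, and lowest on the same array. Irf4 was picked for its likeness to Tigit on these same arrays, so this shared order follows from the choice. Its value on spleen ENK KO 3 (6.63) was below the low-signal level. Ctla4, an inhibitory receptor that competes with Cd28, was at 8.30, 9.03, 8.93 and 9.46 in spleen WT and at 7.24, 7.06, 7.42 and 8.98 in spleen ENK KO, listed in the same order of arrays. Neither Irf4 (-0.68, SE 0.31, adjusted p = 0.507, limma) nor Ctla4 (-1.25, SE 0.37, adjusted p = 0.459) was called between genotypes in spleen.

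**Figure D5:**
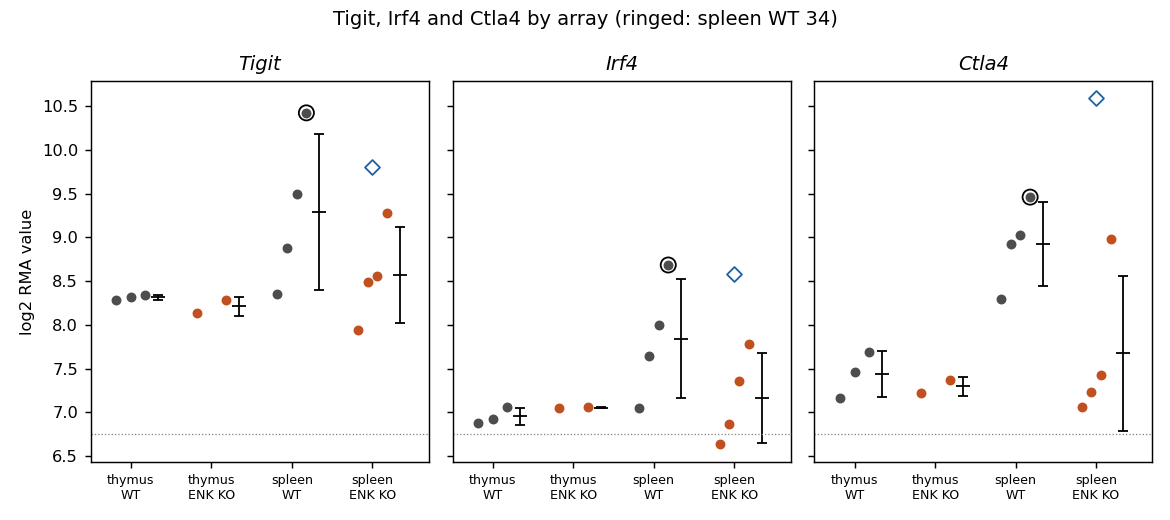
Log2 RMA value (y axis) of Tigit, Irf4 and Ctla4 on each array, by group (x axis). Dots are arrays, bars are the mean ± SD of the dots, the diamond is spleen ENK KO 28, the dotted line is the low-signal level and the ring marks spleen WT 34, which is the highest of the 8 spleen arrays for all 3 genes when number 28 is set aside.

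Of the ligands and counter-receptors of these receptors, 14 of 19 listed genes were tested. In WT 7 were higher in spleen and 4 lower, with a median of 0.47 on the log2 scale, and in ENK KO 9 were higher and 4 lower. Of all genes tested, 31.3% were higher and 38.8% lower in WT, and 27.9% and 37.2% in ENK KO. Cd226, the activating competitor of Tigit, was higher in spleen by 3.24 (SE 0.14, adjusted p = 1.0e-09, limma) in WT and 3.41 (SE 0.16) in ENK KO. Cd48, the ligand of Cd244a, was higher by 1.79 and 1.88, and Cd86, a ligand of Cd28 and Ctla4, by 1.84 and 1.92. The thymus means of Cd86 (5.90 in WT and 6.00 in ENK KO) were below the low-signal level. Cd200r4 was higher by 3.80 in WT and 3.59 in ENK KO, with thymus means of 3.41 and 3.38, far below the low-signal level. Pvr, the ligand of Tigit, was lower in spleen in WT (difference -2.43, SE 0.23, adjusted p = 1.1e-06) and in ENK KO (difference -1.38, SE 0.26, adjusted p = 0.00049).

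In thymus Pvr had the smallest p of these ligands between genotypes. It was at 10.28, 10.63 and 11.21 in WT and at 9.06 and 9.78 in ENK KO. The groups did not overlap, with ENK KO number 1, the 2-month-old, the lower. The difference of -1.285 (SE 0.27, 95% CI -1.87 to -0.70, adjusted p = 0.378, limma) missed the threshold. As given above, 5.21% of all genes separated in this way. No ligand was called between genotypes in either tissue.

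Among 14 tested inhibitory receptors outside the members, 9 were higher in spleen and 2 lower in WT, with a median of 1.08, and 8 were higher and 1 lower in ENK KO, beside 31.3% and 38.8% of all genes in WT and 27.9% and 37.2% in ENK KO. Vsir, an inhibitory receptor of the B7 family, was higher in spleen by 1.80 (SE 0.062, adjusted p = 1.5e-10, limma) in WT and 1.93 in ENK KO. Lair1, a collagen receptor, was higher by 1.34 and 1.06, Cd101 by 1.17 and 1.09, and Cd22, an inhibitory receptor of B cells, by 1.49 and 1.21. The thymus means of Lair1, Cd101 and Cd22 were below the low-signal level in both genotypes, so these sizes are approximate. The mean over 11 B cell markers was 6.35 to 6.40 on thymus arrays and 6.56 to 7.61 on spleen arrays. Its part in the values of Cd22 and of the other genes higher in spleen, members included, was not tested. Between genotypes 0 were called in either tissue. In spleen the smallest p belonged to Ctla4 (above) and Lilrb4a, at 7.46, 7.81, 8.93 and 9.13 in WT and 6.01, 7.11, 7.23 and 8.04 in ENK KO, a difference of -1.235 (SE 0.42, adjusted p = 0.461) with overlapping groups.

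Of 10 tested phosphatases and adaptors that bind the receptors' tails, 6 were higher in spleen and 3 lower in WT, with a median of 0.28, and 5 were higher and 2 lower in ENK KO. The shares called among all genes were 70.1% and 65.0%. Ptpn6, the phosphatase SHP-1, was higher by 0.65 (SE 0.065, adjusted p = 2.4e-06, limma) in WT and 0.59 in ENK KO. Fyn, a Src family kinase, was higher by 0.96 and 0.998, and Arrb2, a beta-arrestin, by 1.34 and 1.49. Sh2d1a, the adaptor SAP that binds Cd244a and its relatives, was lower in spleen, with a difference of -2.20 (SE 0.12, adjusted p = 7.4e-09) in WT and -2.21 in ENK KO. None was called between genotypes.

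The 27 tested genes of adenosine and extracellular nucleotides showed no common direction. In WT 9 were higher in spleen and 10 lower, with a median of 0.0078, and in ENK KO 10 were higher and 12 lower. The share called in WT is close to the 70.1% of all genes, and in ENK KO it is above the 65.0% of all genes. P2rx1, an ATP-gated channel, was lower in spleen, with a difference of -3.07 (SE 0.075, adjusted p = 8.9e-12, limma) in WT and -3.21 in ENK KO. Its spleen means (6.769 in WT and 6.705 in ENK KO) lay around the low-signal level, so these sizes are approximate. Ada, which deaminates adenosine, was lower, with -2.13 (SE 0.16, adjusted p = 1.2e-07) and -1.725, while Adk, which phosphorylates it, was higher, by 1.65 (SE 0.078, adjusted p = 2.6e-09) and 1.55. Nt5c2, a cytosolic nucleotidase, was lower (-1.23 and -1.20), and Entpd6, a relative of Entpd1, higher (1.14 and 1.09). Between genotypes none was called. The smallest p in spleen was that of Ada, at 7.57, 7.77, 7.91 and 8.29 in WT and 8.10, 8.27, 8.32 and 8.49 in ENK KO, a difference of 0.41 (SE 0.14, adjusted p = 0.468) with overlapping groups.

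Among 19 tested regulators of exhaustion and of inhibitory receptor genes, 8 were higher in spleen and 5 lower in WT, and 7 higher and 6 lower in ENK KO, with medians of 0.40 and 0.22. These shares are near the 70.1% and 65.0% called among all genes. Eomes, a T-box factor of memory and exhausted cells, was higher by 5.02 (SE 0.12, adjusted p = 5.6e-12, limma) in WT and 4.97 in ENK KO, from a thymus level below the low-signal level. The NFAT factors Nfatc1 and Nfatc2, which transmit calcium signals, were higher by 1.05 and 1.515 in WT and by 1.11 and 1.57 in ENK KO. Bcl6, a repressor, was lower (-2.79 in WT and -2.78 in ENK KO). None was called between genotypes.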

How the data were processed

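Cells were sorted by flow cytometry and 300 ng of total RNA was labelled for each array, per the labels' protocols. The authors deposited log2 expression values made with RMA (background correction, quantile normalization and summary per probe set), per the submitters' processing notes. The RMA software, the build behind the probe sets and whether the 14 arrays were processed in 1 run are not stated. The platform annotation gave 1 symbol for 21640 of 28213 probe sets. Per gene the probe set with the highest mean was used, and 13641 of 19937 genes were tested.

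A mean per group was fitted to all 14 arrays with limma 3.58.1 (R 4.3.3; lmFit, eBayes with a trend), with spleen ENK KO 28 as a group of its own, with Benjamini-Hochberg adjustment over the 13641 genes. All groups share an estimate of the spread per gene. A call is an adjusted p under 0.05. The steps were tested on simulated data. No batch labels were used.

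The members and lists were chosen with earlier results of these data known. All 10 members are named. From each list up to 4 genes with the smallest p per comparison are named, besides the 3 most similar profiles per member, chromosomal neighbours and co-receptors. Promoter sequences came from RefSeq. A search for tyrosine motifs in the proteins was not run. Alternatives were other filters, normalizations, variance models and probe set summaries, each tissue alone, number 28 counted, no 2-month-old animals, each array left out, and a call rule of 1.5-fold at an unadjusted p under 0.05.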

Additional observations from a re-analysis of the deposited data

Results flagged for a closer look

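In 30 groups of 4 or 5 spleen values checked for a sample far from the others, 6 values stood apart by Dixon's test. Chance gives this in about 1 of 20 groups that are separate and free of identical values. Here the groups with and without number 28 share arrays, and some values were identical, so no excess over chance is read. Number 28, counted in spleen ENK KO, stood apart for Pdcd1 (7.82, high) and for Cd160 (6.80, low). Nt5e was high on spleen WT 37 (10.10) and, with number 28 counted, on spleen ENK KO 25 (10.14). Havcr2 was high on spleen WT 40 (6.15), below the low-signal level. Lag3 was low on spleen ENK KO 3 (6.92), where the other 3 arrays held identical values.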

How the results depend on the processing

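No paired analysis was possible because no sample number occurs in more than 1 group. The calls of Nt5e, Btla, Cd160, Entpd1 and Lag3 between spleen and thymus were kept in both genotypes under every alternative in which they could be tested. Cd244a and Cd200 lost theirs under the rule of 1.5-fold, and low signal limits the values of Cd244a. At a filter at the 60th percentile (7.72), 5 members were called between spleen and thymus in WT, of 5 then tested. Of all genes, 7150 of the 9470 then tested were called. Nt5e, Btla and Cd160 passed this filter only on spleen arrays, and Lag3 only on thymus arrays. Calls at this filter therefore give no separate support. Leaving out single arrays gave 6 to 8 called members in WT, 6 to 7 in ENK KO and 0 in both genotype comparisons and their difference. The WT call of Tigit was lost with number 28 counted (adjusted p = 0.0756), with no filter (0.0501), with median centring (0.053) and without the 2-month-old animals (0.072), and that of Cd200 with number 28 counted (0.103) and without the 2-month-old animals (0.0543).

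No member was called between genotypes under any alternative, and signs below belong to uncalled values near 0. With number 28 counted, the spleen differences were 0.048 for Pdcd1, -0.12 for Cd160 and 0.18 for Entpd1, and the spleen effect minus the thymus effect was 0.085 for Pdcd1 and -0.085 for Cd160. Quantile normalization gave 0.0018 for Cd244a in thymus, and in spleen 0.00054 for Lag3 and 0.028 for Entpd1. Median centring gave 0.00043 for Lag3 and 0.025 for Entpd1 in spleen and 0.0022 for the difference of effects of Pdcd1. Without the 2-month-old animals, Cd200 was at -0.21 in thymus and -0.077 in spleen, Entpd1 at 0.039 and Nt5e at 0.12 in spleen, and the difference of effects of Nt5e was 0.11.

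Leaving out single arrays turned these signs. In thymus the ranges were -0.14 to 0.084 for Pdcd1, -0.12 to 0.0079 for Lag3, -0.070 to 0.021 for Cd160, -0.11 to 0.065 for Btla, -0.015 to 0.013 for Cd244a and -0.21 to 0.32 for Cd200. In spleen they were -0.026 to 0.17 for Cd200, -0.13 to 0.088 for Entpd1 and -0.30 to 0.022 for Nt5e. For the difference of effects they were -0.16 to 0.070 for Pdcd1, -0.040 to 0.086 for Lag3, -0.26 to 0.28 for Cd200, -0.12 to 0.11 for Entpd1 and -0.31 to 0.012 for Nt5e. Between spleen and thymus in WT, Pdcd1 ranged from -0.20 to 0.024, Tigit from 0.59 to 1.28 and Cd200 from -0.72 to -0.23.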

Other observations

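Cd96, a receptor that competes with Tigit for Pvr, was at 7.27 on thymus WT 32 and 7.06 on thymus ENK KO 1, against 11.78 to 11.99 on the other 3 thymus arrays and 11.39 to 11.86 on the 9 spleen arrays. These are the thymus arrays on which Cd200 was highest (7.44 and 7.18). The gene was singled out after its values were seen, and no test was run.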
